A study of Caenorhabditis elegans with 12 samples.

Results

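The genes examined here are those by which the nematode Caenorhabditis elegans senses and oxidizes hydrogen sulfide and controls the hypoxia-inducible factor HIF-1. They were taken by gene name, from a list drawn up with earlier results of these data known: hif-1, egl-9, vhl-1, rhy-1, cysl-1, cysl-2, nhr-57, sqrd-1, sqrd-2 and ethe-1. Of these 10 names, 9 have a row among the 24238 genes of the deposited table, and sqrd-2 was not analysed here. The animals were N2, the wild-type strain from Bristol, and poly(A) RNA of the whole worm was sequenced in 12 libraries. For 6 of them the worms had received tetrathiomolybdate (TM), a sulfur compound of molybdenum that binds copper, over 4 days, and for the other 6 they had received dimethyl sulfoxide (DMSO), the solvent control. The labels give no allele, dose, age or larval stage. They do not say whether libraries of a group came from separate cultures either, so a p-value measures only how far these libraries spread, which may be partly technical.

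In normal oxygen EGL-9, a prolyl hydroxylase, marks the HIF-1 protein, and VHL-1 then hands it to a ubiquitin ligase for destruction. Hydrogen sulfide enters this circuit through CYSL-1, a protein of the cysteine synthase family that binds EGL-9 and blocks it, while RHY-1, a membrane protein of the endoplasmic reticulum, keeps CYSL-1 in check. HIF-1 that escapes destruction turns on genes such as nhr-57, cysl-2, sqrd-1, and also egl-9 and rhy-1 themselves. Hydrogen sulfide is removed in mitochondria by sulfide:quinone oxidoreductase (SQRD-1) and then by the persulfide dioxygenase ETHE-1. Much of this control acts on proteins, which RNA levels do not measure.

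Of the 9 genes, 3 rose in TM, 0 fell and 6 did not pass the test. The genes that rose were cysl-1, the sulfide sensor, nhr-57, a nuclear receptor gene used as a reporter of HIF-1 activity, and sqrd-1. Each rose by less than 2-fold on average. The messages of hif-1, egl-9, vhl-1, rhy-1, cysl-2 and ethe-1 had intervals of change that included 0. TM altered the RNA of these animals widely: 39.8% of the 11535 genes tested, which averaged 1 FPKM or more, passed, 23.7% higher and 16.0% lower, and 3 calls among 9 genes, all of them higher, lie within 1 gene of either share and show nothing particular to these genes. The median log2 change of the 9 was 0.11, beside -0.0091 over all genes tested. In 2 of the 9, cysl-1 and sqrd-1, the TM and DMSO libraries did not overlap, which held for 22.5% of all genes tested. Levels are FPKM (read fragments scaled to transcript length and library size), given as mean ± SD over 6 libraries, and a log2 change is that of TM over DMSO, ± SE, in a model of the read counts. A gene passed at an adjusted p of 0.05 in edgeR's quasi-likelihood test.

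**Figure D1:**
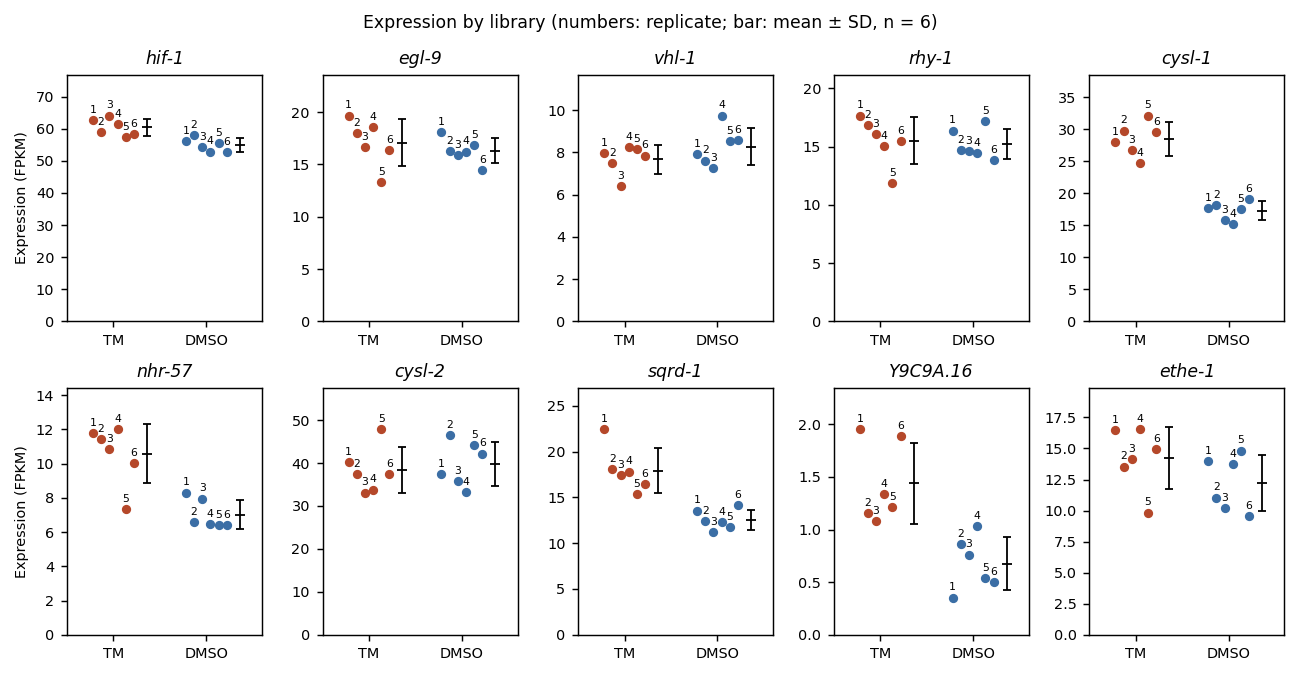
Expression in FPKM of the 9 genes, and of Y9C9A.16, in each of the 12 libraries, TM left and DMSO right, with each axis starting at 0; points are numbered by replicate and bars give mean ± SD (n = 6). The groups are separate for cysl-1, sqrd-1 and Y9C9A.16, and for nhr-57 they overlap only through TM replicate 5 at 7.37 FPKM.

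Total counts ran from 63755278 to 66306356 in the TM libraries and from 61432401 to 67068328 in the DMSO libraries. The 9 genes had 392 to 12980 reads each in every library. The share of counting error in the spread between libraries was not computed, and it is largest for genes with few reads, such as vhl-1. Some libraries stood apart over all genes. On the first principal component DMSO replicate 6 lay at 7.34, with the TM libraries from -56.0 to -39.4 and the other DMSO libraries from 40.4 to 61.01. On the second, TM replicate 5 lay at -39.1, with the other TM libraries from 9.05 to 15.7. DMSO replicates 6 and 2 shared its sign, at -29.3 and -20.4. TM replicate 5 also had lower values for long genes, with a slope of -0.26 log2 CPM (counts scaled to library size) per doubling of gene length, where the remaining TM libraries had -0.057 to 0.019 and DMSO libraries -0.093 to 0.17.

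Markers of tissues moved between the groups as well, and their part in the results below was not tested. Their counts stand beside 23.7% higher and 16.0% lower among all genes tested. Of 11 epidermis markers 8 were higher and 1 lower in TM, with a summed level of 301 to 406 FPKM in TM and 147 to 180 FPKM in DMSO libraries. Much of the difference in that sum was the collagen gene col-10 (139 FPKM in TM, 16.4 FPKM in DMSO). The lower marker was lin-26 (60.5 FPKM in TM, 66.1 FPKM in DMSO), and elt-1 and elt-3 did not pass. Of 7 tested sperm markers 7 were higher and 0 lower, 2 of them having passed the filter on low values only through their TM level, and the sum over all 10 was 69.3 to 104 FPKM in TM and 6.41 to 21.3 FPKM in DMSO libraries. Of 9 body wall muscle markers 8 were higher (1873 to 2369 FPKM in TM, 1217 to 1518 FPKM in DMSO), and of 6 tested pharynx markers 6 were higher (77.8 to 104 FPKM in TM, 51.2 to 68.7 FPKM in DMSO). Neuron markers were higher in 5 of 9 (343 to 423 FPKM in TM, 334 to 397 FPKM in DMSO). Most of that sum was snb-1, which did not pass (271 FPKM in TM, 282 FPKM in DMSO). Intestine markers were higher in 4 of 9 and lower in 1 (1497 to 1781 FPKM in TM, 1566 to 1792 FPKM in DMSO). Most of that sum was cpr-6, which fell (804 FPKM in TM, 959 FPKM in DMSO), and act-5, which rose (508 FPKM in TM, 403 FPKM in DMSO). Oocyte and germline markers were lower in 7 of 10 (3117 to 3487 FPKM in TM, 3757 to 4184 FPKM in DMSO). Of the epidermis and of the pharynx markers tested, 1 each likewise passed the filter only through TM. No marker was at 0 in all libraries. In whole animals, more cells of a type and more RNA per cell cannot be told apart.

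The transcription factor gene hif-1 (chromosome V, 20780407 to 20785260, plus strand, WBcel235) was the most abundant of the 9 in each of the 12 libraries. It had 57.3 FPKM in the lowest, 60.2 in the median and 64.1 in the highest TM library, and 52.7, 54.9 and 58.1 FPKM in DMSO libraries. The groups overlapped, with TM replicate 5 (57.3 FPKM) below DMSO replicate 2 (58.1 FPKM). The means were 60.5 ± 2.64 FPKM in TM and 54.9 ± 2.05 FPKM in DMSO (log2 change 0.11 ± 0.052, 95% interval -0.0023 to 0.22, adjusted p = 0.110). This small difference is near the threshold: hif-1 passed under 7 of 24 alternatives, with log2 changes between 0.064 and 0.19 over all of them. Without DMSO replicates 2 and 6 and TM replicate 5 it was 0.16 (adjusted p = 0.00352).

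The gene of the hydroxylase, egl-9 (chromosome V, 10468517 to 10476915, plus strand), had 13.3, 17.3 and 19.7 FPKM in the lowest, median and highest TM library and 14.5, 16.2 and 18.1 FPKM in DMSO libraries. The TM values spanned the DMSO range on both sides, with TM replicate 5 lowest of all and TM replicate 1 highest. The log2 change was 0.038 ± 0.078 (95% interval -0.13 to 0.20, adjusted p = 0.723). The ratio of egl-9 to hif-1 in FPKM was 0.232 to 0.313 in TM and 0.274 to 0.323 in DMSO libraries, and the groups overlapped.

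The ubiquitin ligase adaptor gene vhl-1 (chromosome X, 11307356 to 11308518, plus strand) had 6.39, 7.90 and 8.26 FPKM in the lowest, median and highest TM library and 7.26, 8.23 and 9.74 FPKM in DMSO libraries. Its groups overlapped over most of their range. The log2 change was -0.13 ± 0.099 (95% interval -0.35 to 0.077, adjusted p = 0.297). It passed as lower after a correction for gene length (log2 change -0.52), a setting that moved the median of all genes to -0.21, and lay 0.31 below that median. It also passed after quantile normalization (log2 change -0.35, adjusted p = 0.00438).

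The gene of the HIF-1 antagonist RHY-1 (chromosome II, 9161379 to 9163448, plus strand) had 11.8, 15.8 and 17.7 FPKM in the lowest, median and highest TM library, and 13.9, 14.6 and 17.2 FPKM in DMSO libraries. The means were 15.5 ± 2.02 FPKM in TM and 15.2 ± 1.29 FPKM in DMSO, and the log2 change was -0.0030 ± 0.081 (95% interval -0.18 to 0.17, adjusted p = 0.980). Both rhy-1 and egl-9 are HIF-1 targets as well as its inhibitors, and neither passed. After length correction rhy-1 passed as lower (log2 change -0.16, adjusted p = 0.0367), 0.049 above the median of all genes in that setting. An exon of rhy-1 shares 82 bases with W07A12.8 on the opposite strand, a gene at 1.08 ± 0.225 FPKM in TM and 1.152 ± 0.316 FPKM in DMSO.

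The sulfide sensor gene cysl-1 (chromosome X, 9952579 to 9954533, minus strand) had the largest change of the 9. Its level was 24.7 FPKM in the lowest, 28.7 in the median and 32.1 in the highest TM library, and 15.2, 17.6 and 19.1 FPKM in DMSO libraries. Each TM library lay above each DMSO library, and the gap between the groups was wider than the spread within the DMSO group. The mean was 28.5 ± 2.58 FPKM in TM and 17.3 ± 1.47 FPKM in DMSO, and the count model gave a 1.61-fold rise (log2 change 0.69 ± 0.089, 95% interval 0.50 to 0.88, adjusted p = 3.70e-05). It passed under all 24 alternatives, with log2 changes from 0.38 to 0.75, the lowest after length correction. In that setting it lay 0.59 above the median of all genes. Among all genes tested, 13.9% had a larger change in size.

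Of 6650 other named genes tested, those with profiles closest to that of cysl-1 were pcp-4, bcmo-2 and the cuticle collagen gene col-179. Their root mean square differences from it over the 12 libraries were 0.080, 0.099 and 0.11 log2 CPM, each profile being taken relative to its DMSO mean. Since they were picked for likeness to a gene that rose, their own log2 changes, 0.74 for pcp-4, 0.64 for bcmo-2 and 0.66 for col-179, follow from the choice and are given with no test. Levels differed widely among them, with col-179 at 476 ± 45.3 FPKM in TM and 295 ± 27.4 FPKM in DMSO, and pcp-4 at 11.5 ± 1.35 FPKM in TM and 6.70 ± 0.526 FPKM in DMSO.

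The related gene cysl-2 (chromosome II, 14492874 to 14494451, minus strand), which encodes a cyanoalanine synthase that detoxifies cyanide and is strongly induced by HIF-1, did not pass. It was second in abundance in each of the 12 libraries, at 33.1, 37.4 and 47.9 FPKM in the lowest, median and highest TM library and 33.3, 39.8 and 46.4 FPKM in DMSO libraries. The ranges of the groups nearly coincided. The log2 change was -0.087 ± 0.11 (95% interval -0.33 to 0.16, adjusted p = 0.566), so a rise of the size seen for cysl-1 lies outside its interval. After length correction cysl-2 passed as lower (log2 change -0.45), 0.24 below the median of all genes in that setting.

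The paralogs cysl-1 and cysl-2 therefore stood in different proportion in the groups. The ratio of cysl-1 to cysl-2 in FPKM was 0.670, 0.759 and 0.809 in the lowest, median and highest TM library and 0.392, 0.448 and 0.474 in DMSO libraries, with no overlap. In TM replicate 5 both genes were at the highest level of their group and the ratio was still 0.670. This ratio was chosen after the values had been seen and is given with no test. An exon of cysl-2 shares 36 bases with vnut-1 on the opposite strand, a gene at 36.1 ± 2.78 FPKM in TM and 35.3 ± 1.66 FPKM in DMSO, and how reads that match several genes were counted is not given in the sources used here.

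The nuclear receptor gene nhr-57 (chromosome V, 4131889 to 4135102, plus strand) rose. It had 7.37, 11.2 and 12.03 FPKM in the lowest, median and highest TM library and 6.41, 6.52 and 8.31 FPKM in DMSO libraries. The groups overlapped through TM replicate 5 alone, and without it the TM libraries ran from 10.03 to 12.03 FPKM, above all DMSO libraries. The mean was 10.6 ± 1.73 FPKM in TM and 7.02 ± 0.869 FPKM in DMSO, and the count model gave a 1.47-fold rise (log2 change 0.56 ± 0.12, 95% interval 0.31 to 0.81, adjusted p = 0.00163). Without TM replicate 5 the log2 change was 0.63 (adjusted p = 7.66e-05). The log2 change was 0.37 after length correction and 0.29 after quantile normalization, and nhr-57 passed in both. After length correction it lay 0.58 above the median of all genes in that setting. An exon of nhr-57 shares 16 bases with lgc-1 on the same strand, a gene at 0.530 ± 0.266 FPKM in TM and 0.177 ± 0.0848 FPKM in DMSO.

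Of the HIF-1 targets among the 9 genes, nhr-57 and sqrd-1 rose. The others, cysl-2, egl-9 and rhy-1, had log2 changes of -0.087, 0.038 and -0.0030 and did not pass. The ratio of nhr-57 to rhy-1 in FPKM, chosen after the values had been seen, was 0.622 to 0.799 in TM and 0.373 to 0.546 in DMSO libraries, with no overlap even in TM replicate 5, where both genes were at the lowest level of their group.

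**Figure D2:**
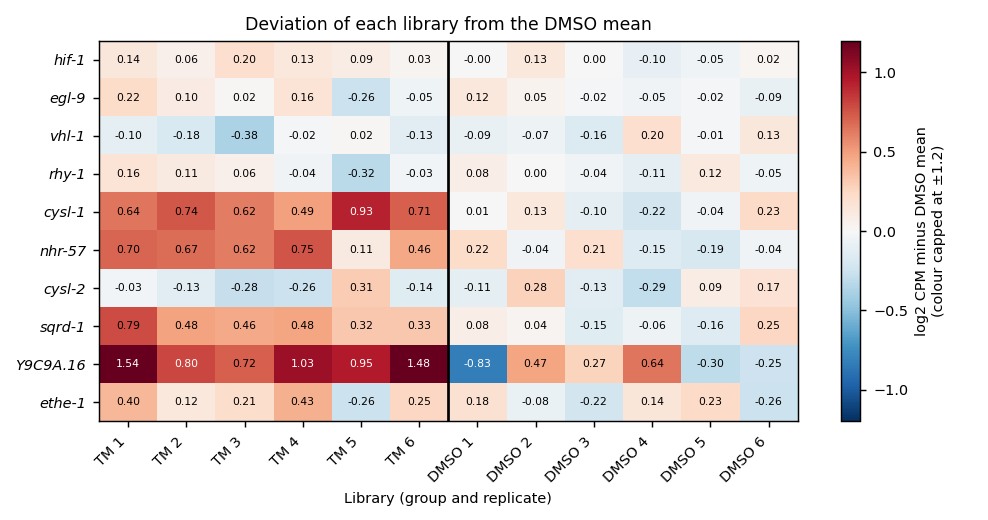
Log2 CPM of each gene in each library minus its mean over the 6 DMSO libraries, TM libraries left of the line and DMSO libraries right of it, in order of replicate, with colours capped at 1.2 in size and every value printed. The row of cysl-1 runs from 0.49 to 0.93 in TM, while in TM replicate 5 the values of egl-9 (-0.26), rhy-1 (-0.32) and ethe-1 (-0.26) lie below 0 and that of cysl-2 (0.31) above it.

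The gene of the first enzyme of sulfide oxidation, sqrd-1 (chromosome IV, 14219871 to 14224440, plus strand), rose. It had 15.3, 17.6 and 22.5 FPKM in the lowest, median and highest TM library and 11.2, 12.4 and 14.1 FPKM in DMSO libraries. Each TM library was above each DMSO library, with TM replicate 1 well above the others at 22.5 FPKM and the next at 18.1. The mean was 17.9 ± 2.45 FPKM in TM and 12.6 ± 1.09 FPKM in DMSO, and the count model gave a 1.39-fold rise (log2 change 0.48 ± 0.094, 95% interval 0.28 to 0.68, adjusted p = 0.00108). It passed under all 24 alternatives, with log2 changes from 0.32 to 0.59. The lowest came after length correction, where it lay 0.53 above the median of all genes.

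The deposited annotation gives the sulfide:quinone oxidoreductase activity also to Y9C9A.16 (chromosome IV, 4973521 to 4976125, minus strand), a gene outside the list that was looked up after the values had been seen. Its level was low, at 1.08, 1.28 and 1.96 FPKM in the lowest, median and highest TM library and 0.352, 0.650 and 1.03 FPKM in DMSO libraries. The groups did not overlap, though the lowest TM library and the highest DMSO library were close. The mean was 1.44 ± 0.384 FPKM in TM and 0.675 ± 0.254 FPKM in DMSO, from 33 to 192 reads per library. It passed the filter only through its TM level, so it is given by its levels and with no test. Its log2 change was 1.05 in the count model but 0.046 after quantile normalization. At these levels sqrd-1 supplied most of the RNA annotated with this activity in both groups.

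The gene of the next enzyme of the route, ethe-1 (chromosome IV, 9506936 to 9508761, minus strand), did not pass. It had 9.84, 14.5 and 16.6 FPKM in the lowest, median and highest TM library and 9.53, 12.4 and 14.8 FPKM in DMSO libraries. The values varied widely within both groups, with TM replicate 5 and DMSO replicate 6 at the bottom. The mean was 14.3 ± 2.49 FPKM in TM and 12.2 ± 2.23 FPKM in DMSO (log2 change 0.20 ± 0.13, 95% interval -0.078 to 0.47, adjusted p = 0.238). Without TM replicate 5 the log2 change was 0.27 (adjusted p = 0.0550), it passed when libraries were weighted by quality (log2 change 0.25, adjusted p = 0.0419), and it was -0.19 after length correction, 0.016 above the median of all genes in that setting. The ratio of sqrd-1 to ethe-1 in FPKM, chosen after the values had been seen, was 1.07 to 1.56 in TM and 0.793 to 1.48 in DMSO libraries, and the groups overlapped.

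The order of levels was much alike in the groups. From the top it ran hif-1, cysl-2, cysl-1, sqrd-1, egl-9, rhy-1, ethe-1, nhr-57 and vhl-1 by mean FPKM in TM, and hif-1, cysl-2, cysl-1, egl-9, rhy-1, sqrd-1, ethe-1, vhl-1 and nhr-57 in DMSO. In each TM library cysl-1 took rank 3, and in DMSO libraries rank 3 or 4, with a mean within 1 SD of that of egl-9. In TM sqrd-1 and egl-9 took ranks 4 and 5 in varying order, and in DMSO sqrd-1 lay between ranks 5 and 7, beside rhy-1 and ethe-1. The last places were shared by nhr-57 and vhl-1 in each library. The spread between libraries was smallest for hif-1 (coefficient of variation 4.37% in TM, 3.74% in DMSO) and largest for ethe-1 (17.5% in TM, 18.3% in DMSO).

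TM replicate 5 departed from the other TM libraries in opposite directions for different genes. Its log2 CPM minus the mean of the other TM libraries was -0.54 for ethe-1, -0.53 for nhr-57, -0.38 for rhy-1, -0.35 for egl-9 and -0.19 for sqrd-1. It was 0.47 for cysl-2, 0.29 for cysl-1 and 0.18 for vhl-1, and -0.019 for hif-1. The SD among the other TM libraries was between 0.069 and 0.17 for these genes. In both log2 CPM and FPKM, TM replicate 5 held the lowest TM value of egl-9, rhy-1, nhr-57, sqrd-1 and ethe-1, and DMSO replicate 6 the lowest DMSO value of egl-9 and ethe-1. The genes that were high in TM replicate 5 were short, with 895 exon bases for vhl-1, 1123 for cysl-2 and 1236 for cysl-1. Those that were low had 1559 for nhr-57, 1661 for sqrd-1, 1668 for rhy-1 and 3396 for egl-9, apart from ethe-1 with 834, and hif-1, near 0, had 2960. The part of gene length in this was not tested. The count of called genes among the 9 was 3 without each library in turn, and 4 (4 higher, 0 lower, hif-1 joining) without DMSO replicates 2 and 6 and TM replicate 5. Among all 11535 genes tested, 3974 to 5343 were called with a library left out and 6350 in the last setting.

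**Figure D3:**
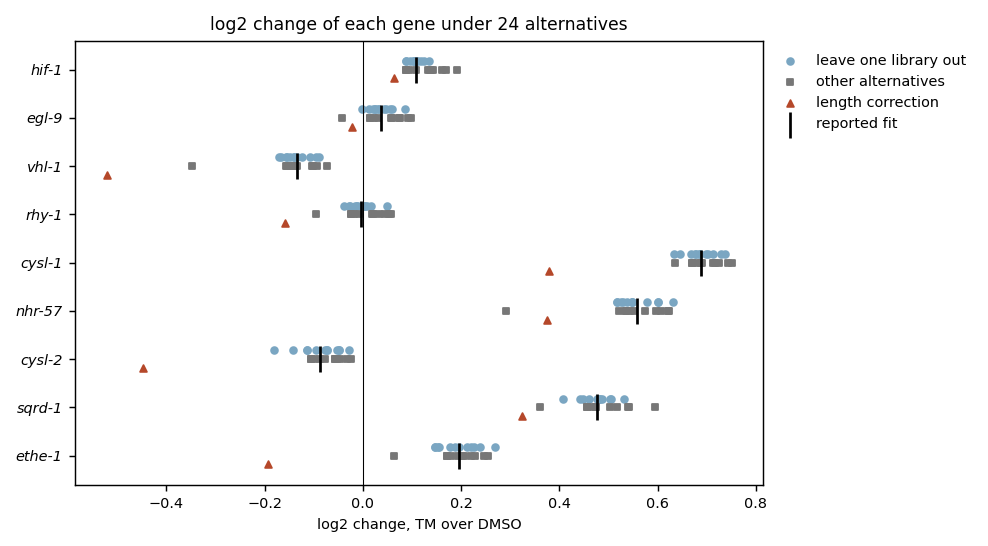
Log2 change (TM over DMSO) of each of the 9 genes in the reported fit (black bar), with each library left out in turn (circles), with gene length correction (triangle) and under the other alternatives (squares). The values of cysl-1, nhr-57 and sqrd-1 stay between 0.29 and 0.75, while those of egl-9 and rhy-1 fall on both sides of 0.

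The HIF-1 dimer partner gene aha-1, genes of the VHL-1 ligase and swan-1 were tested beside them. Of these 6 genes 3 were lower and 0 higher in TM, with a median log2 change of -0.19. Among all genes tested, 39.8% passed in either direction and 16.0% passed as lower, so a count from 6 genes shows little about the list. The clearest was swan-1, which encodes a WD-repeat protein, with 17.8, 19.2 and 21.2 FPKM in the lowest, median and highest TM library and 21.3, 23.1 and 24.7 FPKM in DMSO libraries (log2 change -0.28 ± 0.067, adjusted p = 0.00476). Its groups lay side by side without overlap. The ligase genes elb-1, which encodes Elongin B (log2 change -0.32 ± 0.11, adjusted p = 0.0317), and cul-2, which encodes the cullin scaffold (log2 change -0.16 ± 0.058, adjusted p = 0.0446), were near the threshold. The count fell to 1 without TM replicate 1, 2, 4 or 6 or DMSO replicate 2, 3 or 6. The HIF-1 dimer partner gene aha-1 was at 12.9 ± 1.58 FPKM in TM and 13.9 ± 1.68 FPKM in DMSO and did not pass (log2 change -0.14 ± 0.085, adjusted p = 0.209). Neither did elc-1, for Elongin C (log2 change -0.053 ± 0.19, adjusted p = 0.838), nor rbx-1, for the RING subunit (log2 change -0.22 ± 0.088, adjusted p = 0.0567).

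Some other genes reported to be controlled by HIF-1 were higher in TM. Of 5 tested, 3 rose and 0 fell, beside 23.7% higher and 16.0% lower among all genes tested. The list is too short to show more than its single genes. Its median log2 change of 0.89 takes in ftn-1, which HIF-1 represses, with genes that it activates, so it does not measure a joint rise. The collagen prolyl hydroxylase gene phy-2 had 11.5, 17.9 and 22.9 FPKM in the lowest, median and highest TM library and 7.55, 7.90 and 8.44 FPKM in DMSO libraries. It did not overlap between groups, and TM replicate 5 was again the lowest of its group (log2 change 1.11 ± 0.12, adjusted p = 1.19e-05). The hypoxia-induced gene F22B5.4 was at 10.5 ± 1.78 FPKM in TM and 5.54 ± 0.574 FPKM in DMSO (log2 change 0.89 ± 0.14, adjusted p = 0.000160). The ferritin gene ftn-1, which HIF-1 is known to repress, also rose, to 17.5 ± 4.86 FPKM in TM against 6.39 ± 1.85 FPKM in DMSO (log2 change 1.42 ± 0.23, adjusted p = 0.000254).

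Targets that did not pass were fmo-2, which encodes a flavin-containing monooxygenase (3.58 ± 0.396 FPKM in TM, 3.72 ± 0.656 FPKM in DMSO, log2 change -0.081 ± 0.12, 95% interval -0.34 to 0.18, adjusted p = 0.621), and cdo-1, which encodes cysteine dioxygenase (22.1 ± 3.55 FPKM in TM, 25.3 ± 3.82 FPKM in DMSO, log2 change -0.22 ± 0.11, 95% interval -0.46 to 0.014, adjusted p = 0.122). The metal transporter gene smf-3 was below the filter, at 0.687 to 1.18 FPKM in TM and 0.390 to 0.588 FPKM in DMSO libraries. Its groups did not overlap.

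**Figure D4:**
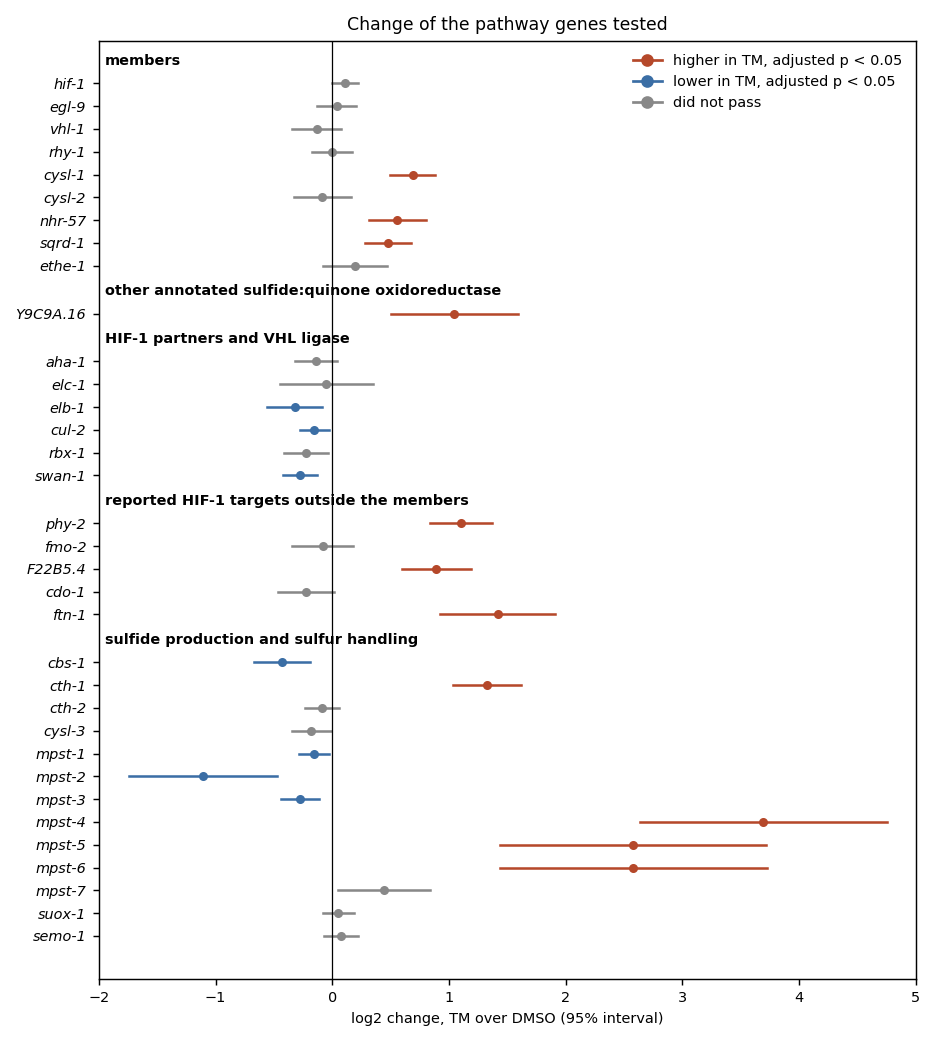
Log2 change (TM over DMSO) with its 95% interval for the 9 genes, Y9C9A.16 and the tested genes of the 3 further lists, coloured by direction where the adjusted p passed. The 9 genes lie between -0.13 (vhl-1) and 0.69 (cysl-1), and the widest intervals are those of mpst-4, mpst-5 and mpst-6, which passed the filter only through TM. Y9C9A.16 also passed it only through TM, and the colours of these genes are not to be read as a test.

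Genes that make hydrogen sulfide or pass its sulfur on were changed in both directions. Of 13 tested, 4 rose and 4 fell, beside 23.7% higher and 16.0% lower among all genes tested. However, 3 of the 4 that rose passed the filter of 1 FPKM only through their TM level. With a filter of 5 FPKM, 1 rose and 2 fell among 8 tested. The cystathionine gamma-lyase gene cth-1, whose enzyme can release hydrogen sulfide from cysteine, had 8.17, 8.79 and 12.4 FPKM in the lowest, median and highest TM library and 3.11, 3.77 and 4.51 FPKM in DMSO libraries (log2 change 1.33 ± 0.14, adjusted p = 5.74e-06). Its groups were well apart, while the more abundant paralog cth-2 was at 87.5 ± 8.84 FPKM in TM and 91.0 ± 6.53 FPKM in DMSO and did not pass (log2 change -0.086 ± 0.068, 95% interval -0.23 to 0.061, adjusted p = 0.336). Those 3 belong to the sulfurtransferase family and are given by their levels alone. The gene mpst-4 had 2.65 ± 0.621 FPKM in TM and 0.194 ± 0.169 FPKM in DMSO, with 0 to 36 reads in DMSO libraries. The level of mpst-5 was 2.49 ± 0.738 FPKM in TM and 0.396 ± 0.354 FPKM in DMSO, and that of mpst-6 was 2.48 ± 0.711 FPKM in TM and 0.394 ± 0.359 FPKM in DMSO. These 2 had nearly the same value in each library, and whether reads were shared between them was not tested, so each is uncertain. DMSO replicate 6 had the highest DMSO value of mpst-4, mpst-5 and mpst-6.

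The members of this list that fell, named after their values had been seen, were the cystathionine beta-synthase gene cbs-1 (log2 change -0.44 ± 0.11, adjusted p = 0.00693) and the sulfurtransferase genes mpst-1, mpst-2 and mpst-3. In each of them the groups overlapped. The log2 change was -0.16 ± 0.060 for mpst-1 (adjusted p = 0.0452, near the threshold) and -0.28 ± 0.076 for mpst-3 (adjusted p = 0.0107). For mpst-2 it was -1.11 ± 0.30 (adjusted p = 0.00850), from 36 to 280 reads per library. The sulfite oxidase gene suox-1, whose enzyme uses a molybdenum cofactor at the last step of sulfur oxidation, was at 14.95 ± 0.819 FPKM in TM and 14.1 ± 0.644 FPKM in DMSO and did not pass (log2 change 0.052 ± 0.062, 95% interval -0.081 to 0.18, adjusted p = 0.527). The cysteine synthase family gene cysl-3 was at 59.4 ± 3.47 FPKM in TM and 65.8 ± 4.74 FPKM in DMSO (log2 change -0.18 ± 0.077, adjusted p = 0.0771). Its relative cysl-4, below the filter, had 0.625 to 1.27 FPKM in TM libraries and was listed at 0 in 4 of the 6 DMSO libraries, with at most 0.198 FPKM in the others. Likewise cbs-2 was below the filter, at 1.06 to 2.11 FPKM in TM and 0.108 to 0.844 FPKM in DMSO libraries.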

How the data were processed

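The deposited table gives raw read counts and FPKM values per gene and library, per the file headers. Per the submitters' processing notes, reads were trimmed with cutadapt 1.9, checked with FastQC, aligned with HISAT2 2.2.1 and quantified with StringTie. The sources used here name no counting tool, strand setting or genome build. Of 24238 gene identifiers, 24232 matched RefSeq's WBcel235 table with the same start for 97.0% and the same end for 95.9%, and the genes given with coordinates had the same ones in Ensembl's WBcel235 annotation.

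Counts were tested with edgeR 4.0.16 (R 4.3.3): TMM scaling, robust quasi-likelihood F test, two-sided, treatment as the only term, Benjamini-Hochberg adjustment over the 11535 genes whose mean reached 1 FPKM. SE is the size of the log2 change divided by the square root of F. Marker and pathway lists, described by counts, held 10 members or fewer except epidermis (11) and sulfur handling (15), and 1 intestine marker, opt-2, has no row. Named genes were all members, up to 4 passing genes of each pathway list and the 3 profiles closest to the most changed member, besides those said to be chosen later. The members and lists were chosen with earlier results of these data known. Alternatives used limma 3.58.1 and DESeq2 1.42.0, and length correction was a loess fit per library on the gene length implied by count and FPKM. The model was also run on simulated counts. These had no outlying libraries and no trend with gene length, so that run cannot speak for the calls here, and its outcome is not given. Replicates 1 to 6 of the groups share only a number. Pairs of libraries of a group differed by a chi-square per degree of freedom of 18.2 to 231, which is more than counting error alone gives. Whether they came from separate cultures cannot be told from this. Each library was treated as 1 replicate in the model. No sequence is shown, since none was used here.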

Additional observations from a re-analysis of the deposited data

How the results depend on the processing

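The calls of cysl-1, nhr-57 and sqrd-1 held under all 24 alternatives. The number of the 9 genes called, 3, was 5 after quantile normalization (4 higher, 1 lower), 5 with quality weights and 6 after length correction (3 higher, 3 lower). Of all 11535 genes tested, 4845, 6473 and 6983 were called in these settings. Counts of 5 or 6 therefore show nothing particular to the 9 genes. Over all genes, 4590 were called, 59.7% of them higher. The count was 2649 with a filter of at least 5 FPKM and 6983 after length correction, of which 26.7% were higher, and 39.2% of calls were higher after quantile normalization. Of the sulfur handling genes, 3 were called with that filter, where 8 were tested. Of the list of aha-1, the VHL-1 ligase genes and swan-1, 1 was called with that filter, 1 with a replicate block and between 1 and 4 with a library left out. The replicate block called 3633 genes and 3 of the 9. Correlations of same-numbered libraries ran from -0.36 to 0.24 and only replicate 4 of TM correlated best with its own number.

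Directions turned for genes with changes near 0. The log2 change of egl-9 was -0.043 after quantile normalization and -0.023 after length correction. The medians of all genes in these settings were -0.088 and -0.21, and after length correction egl-9 lay 0.18 above the median. It was between -0.0012 and 0.086 with a library left out and 0.091 without DMSO replicates 2 and 6 and TM replicate 5. The log2 change of ethe-1 was -0.19 after length correction, 0.016 above the median of all genes. That of rhy-1 was 0.033 with total counts, 0.020 with limma at either pseudocount, 0.058 with the 5 FPKM filter, 0.045 with quality weights, 0.053 without DMSO replicates 2 and 6 and TM replicate 5, between -0.039 and 0.049 with a library left out, and -0.16 after length correction, where it passed. The causes were not tested. The 9 genes had at least 392 reads in every library, but genes under about 1 FPKM rest on few reads.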
